A study of Macaca mulatta with 136 samples.

Results

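The comparison was that of the fovea with the perimacula in RPE/choroid, the retinal pigment epithelium and the vascular layer beneath it. Its members were chosen by their labels: the 4 RPE/choroid libraries of the fovea and the 4 RPE/choroid libraries of the perimacula, 8 of the 32 libraries of the series. They came from punches of 2 mm in the right and the left eye of 2 rhesus macaques, RM03 and RM04, aged 13 and 18 years, and nothing in the sources used here ties an age to an animal. No treatment and no altered genotype is given for them, so that the groups differ by the location within the eye, and every eye gave a library of each group. The other 24 libraries came from 2 further locations of the same tissue, nasal and periphery, and from neural retina at all 4 locations. The design limits each group to 4 eyes of 2 animals, and the fellow eyes of an animal are not independent animals.

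The fovea is the pit at the centre of the macula, where cones are packed most densely and the inner retina carries no vessels of its own. The pigment epithelium behind it recycles the chromophore of the photopigments, takes up shed outer segments and secretes VEGF towards the choroid, whose capillaries, arterioles, stroma, melanocytes and nerves feed and surround the outer retina. The perimacula is the ring around the macula. In a bulk punch of this tissue all of these cells contribute RNA, so that fewer cells of a type and less RNA per cell cannot be told apart.

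The deposited values were estimated counts of RNA-seq reads per gene, and the lanes of a library were summed. The sums of the 8 libraries ran from 45212951 to 66331817, with medians of 49285204 at the fovea and 60568934 at the perimacula, and each library was spread over 5 lanes of the same 2 flow cells. Levels are given as CPM, a gene's count relative to the total of its library, after TMM normalization over the 8 libraries, always in the order right and left eye of RM03, right and left eye of RM04. CPM is not divided by gene length, so that levels are compared between libraries and not between genes. Markers of the pigment epithelium fitted the label: their CPM, normalized over all 32 libraries, summed to 8684 to 31220 in the 8 libraries against 949 to 1870 in retina libraries of the same locations. Rod markers summed to 50.1 to 538 CPM, against 4007 to 16564 in retina. Over all genes tested, the typical distance between libraries, as a root mean square of log2 differences, was 0.622 ± 0.0668 between the locations of an eye (SD, n = 4 eyes), 0.546 on average between fellow eyes at the same location and 0.895 between the animals.

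Some libraries stood apart in their cell markers. The 17 Schwann cell and myelin genes, which mark the sheath of peripheral nerve, summed to 13311, 1458, 1576 and 4206 CPM at the perimacula and to 1420.5, 1668, 1563 and 1350.1 CPM at the fovea. The right eye of RM03 and the left eye of RM04 were thus high at the perimacula and the other 6 libraries were low. The 9 rod markers summed to 56.8, 48.9, 526 and 129.7 CPM at the fovea and to 108, 47.5, 49.3 and 97.7 CPM at the perimacula, with the right eye of RM04 the highest, at the fovea. The 19 pigment epithelium markers summed to 19057, 15144, 30024 and 30442 CPM at the fovea and to 8314, 12554, 15056 and 22710.3 CPM at the perimacula, so that each eye had the larger sum at the fovea while the ranges of the groups overlapped. The part of these differences in the results below was not tested.

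Which genes separate the fovea from the perimacula of this tissue was asked of the 8 libraries in edgeR, by the quasi-likelihood test with the animal as a covariate. Higher at the fovea were 8 of 18 contractile genes of smooth muscle, 5 of 15 endothelial markers, VEGFA and its receptor FLT1. So were 4 BMP ligands and 4 of 22 genes that bundle actin or build adhesion plaques. Higher at the perimacula were transcription factors led by PRRX1 and EBF3, the muscarinic receptor CHRM3 and the secretory gene AGR2. Of 15215 genes tested, 357 (2.35%) were called at a Benjamini-Hochberg adjusted p under 0.05, 259 of them (1.7%) higher at the fovea and 98 (0.644%) higher at the perimacula. All 357 differed in the same direction in 4 of 4 eyes, where 14.9% of all genes tested were higher at the fovea and 13.6% higher at the perimacula in 4 of 4 eyes. For 203 of them the 4 libraries of a location did not overlap the 4 of the other, as for 951 (6.25%) of all genes tested. The differences were small: the median absolute log2 fold change was 0.71 among the called genes and 0.14 among all tested, and 78 called genes passed an absolute log2 fold change of 1, 54 higher at the fovea and 24 higher at the perimacula. A log2 fold change is positive where a gene was higher at the fovea, throughout.

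The count of calls depended on how the spread was estimated. With the eye as a block no gene passed in edgeR (2804 had an unadjusted p under 0.05, and the lowest adjusted p was 0.0615), whereas DESeq2 called 1316 genes (8.65%) with that block and 1472 (9.67%, with 6.07% higher at the fovea and 3.6% higher at the perimacula) without it, and 356 of the 357 genes were called in each. Over the 71 genes named by rule, the adjusted p with the eye as a block lay between 0.0615 and 0.103. A joint edgeR fit with the periphery libraries of this tissue called 7 genes (0.0447%), all 7 among the 357, and the choice of the fit without the periphery was made with that smaller count known. Without 1 of the fovea libraries, in the order above, 45, 6, 4 and 1 genes were called, and without 1 of the perimacula libraries 115, 413, 17 and 272.

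**Figure D1:**
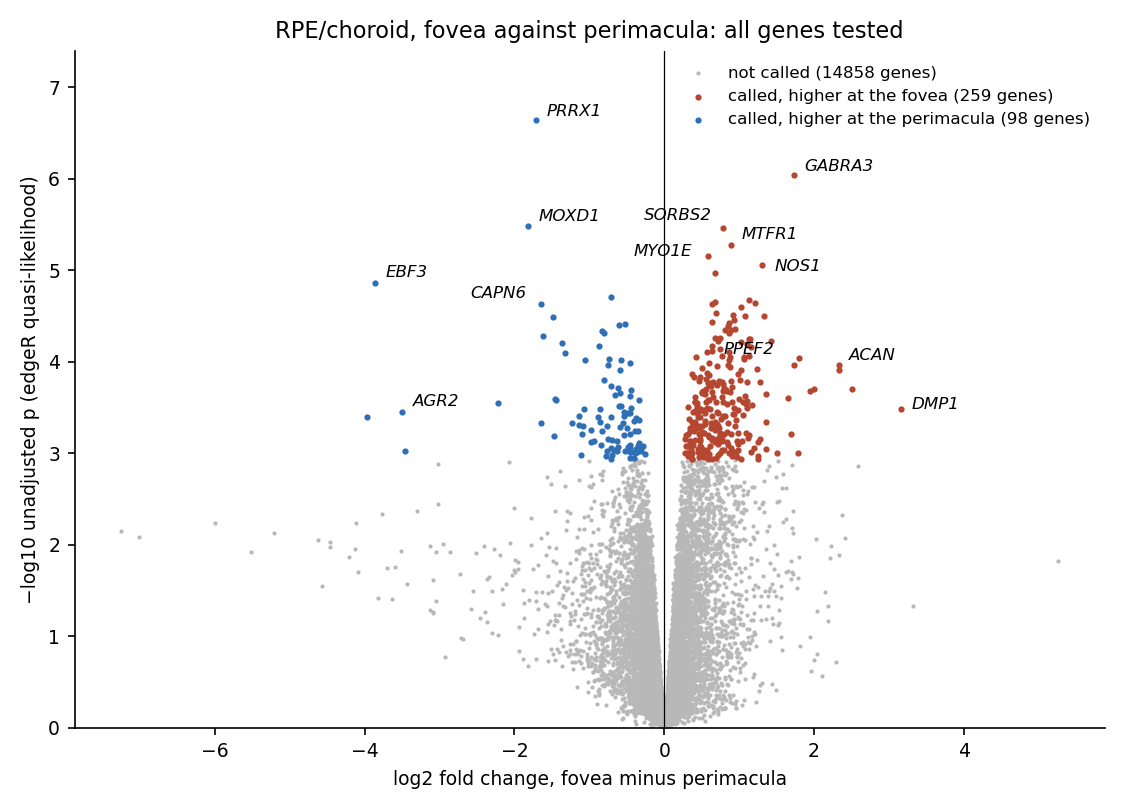
Every gene tested, by its log2 fold change (horizontal, fovea minus perimacula) and the −log10 of its unadjusted p in edgeR (vertical), with the 259 genes called higher at the fovea in red and the 98 called higher at the perimacula in blue. PRRX1 and GABRA3 stand highest, and the grey points far to the left at low height include the myelin genes DRP2 and PMP2, which were not called.

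PRRX1, a homeobox transcription factor of embryonic mesenchyme, had the lowest p of all genes. It had 43.7, 39.8, 19.5 and 24.5 CPM at the fovea and 133, 146, 80.9 and 60.6 CPM at the perimacula, 31.9 ± 11.7 against 105 ± 40.7 (SD, n = 4), and was 3.28-fold higher at the perimacula (log2 fold change -1.71, SE 0.112, adjusted p = 0.00345). The highest fovea library lay below the lowest perimacula library, and the call held whichever of the 8 libraries was left out. EBF3, a helix-loop-helix factor of the early B-cell factor family, had 0.257, 0.0852, 0.689 and 0.409 CPM at the fovea and 4.59, 4.88, 4.25 and 5.53 CPM at the perimacula (log2 fold change -3.86, SE 0.425, adjusted p = 0.0224). All 4 perimacula libraries stood above 4 CPM and all 4 fovea libraries under 0.7 CPM, and the call was lost only without the left eye of RM04 at the fovea, among the 8 such fits.

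Among 26 tested transcription factors of mesenchyme, 4 were called, all higher at the perimacula, against 0.644% of all genes tested, PRRX1, EBF3 and OSR1 among them. The list's median log2 fold change was -0.11, against -0.01 for all genes tested, and its 12 members with a positive value and 14 with a negative one were nearly balanced. OSR1, an odd-skipped zinc finger factor, was lower in RM04 at both locations, at 4.78, 5.14, 0.925 and 1.09 CPM at the fovea and 7.3, 10.2, 3.6 and 2.88 CPM at the perimacula (log2 fold change -1.23, SE 0.22, adjusted p = 0.0352), and each eye was higher at the perimacula. TWIST1 had a log2 fold change of -0.77 (adjusted p = 0.162), FOXC1 of -0.15 (adjusted p = 0.451) and EBF1, the relative of EBF3, of 0.09 (adjusted p = 0.637), and none of the 3 was called. TCF21, a factor of perivascular mesenchyme, had the highest value of the list, 1.71, and missed the threshold (adjusted p = 0.0527).

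Of 22 tested genes that pattern the eye, 4 were called higher at the fovea and 2 higher at the perimacula. The shares of all genes tested were 1.7% and 0.644%, and the list median was 0.24. ZFHX4, a zinc finger homeobox factor, was called higher at the perimacula, at 16.8, 22.2, 13.8 and 14.2 CPM at the fovea and 42.1, 39.4, 36.2 and 22.3 CPM at the perimacula (log2 fold change -1.06, SE 0.152, adjusted p = 0.0236). The nuclear receptor NR2F1 was so too, at 24, 32.2, 25 and 24.2 CPM at the fovea and 57.9, 43.5, 38.2 and 45 CPM at the perimacula (log2 fold change -0.81, SE 0.124, adjusted p = 0.0279). Neither gene had overlapping groups, though those of ZFHX4 nearly met, at 22.2 and 22.3 CPM. Called higher at the fovea were BMP4, which is a secreted ligand, and the transcription factors LHX2, IRX2 and TBX3. LHX2, which the eye field needs, had 21.8, 18.2, 41.6 and 48.5 CPM at the fovea and 7.43, 12.8, 18.2 and 28.7 CPM at the perimacula (log2 fold change 0.96, SE 0.193, adjusted p = 0.0456), with RM04 the higher animal at both locations and the groups overlapping. IRX2, an Iroquois homeobox factor, had 23.2, 29.3, 11.8 and 11.3 CPM at the fovea and 9.63, 10.4, 8.7 and 6.86 CPM at the perimacula (log2 fold change 0.99, SE 0.183, adjusted p = 0.0383). TBX3, a T-box factor, had 13.4, 18.1, 12.6 and 14.2 CPM at the fovea and 7.46, 7.7, 7.31 and 9.83 CPM at the perimacula (log2 fold change 0.85, SE 0.153, adjusted p = 0.0352). For IRX2 and TBX3 every fovea library was above every perimacula library, by little in RM04 for IRX2. PAX6 had the largest value of the list, a log2 fold change of 1.63 at 2.02, 2.39, 8.16 and 3.86 CPM against 0.995, 0.819, 0.632 and 2.47 CPM, and was not called (adjusted p = 0.093). OTX2, a factor the pigment epithelium keeps, was not called either, at 0.81 (adjusted p = 0.132).

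Among called genes that averaged 3 log2 CPM or more over the 8 libraries and had 1 identifier and the same direction in 4 of 4 eyes, the others of the 12 with the largest differences towards the perimacula were AGR2, MOXD1, CAPN6, EGFL6, CHRM3, TMEFF2, GPC3, CMTM5, TMPRSS5 and TPST1. AGR2, a disulfide isomerase of secretory cells, had 0.12, 0.32, 50.7 and 40.6 CPM at the fovea and 11.1, 19, 217 and 274 CPM at the perimacula (log2 fold change -3.50, SE 0.603, adjusted p = 0.0321). It was under 1 CPM at the fovea of RM03 and over 40 CPM at the fovea of RM04, and each eye was higher at the perimacula, by -6.16, -5.74, -2.10 and -2.76 log2 units with the sign of fovea minus perimacula. MOXD1, a monooxygenase related to dopamine beta-hydroxylase, had 4.25, 5.22, 6.71 and 6.08 CPM at the fovea and 18.9, 23.6, 18 and 17.6 CPM at the perimacula, 3.53-fold higher at the perimacula with no overlap (log2 fold change -1.82, SE 0.166, adjusted p = 0.0131).

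CAPN6, a calpain without protease activity, had 27.7, 26.4, 78.8 and 60.3 CPM at the fovea and 125, 66.5, 185 and 199 CPM at the perimacula (log2 fold change -1.64, SE 0.194, adjusted p = 0.0224). EGFL6, a secreted matrix protein with EGF repeats, had 21.3, 14.5, 9.4 and 11.6 CPM at the fovea and 40.9, 37.5, 40.9 and 35 CPM at the perimacula (log2 fold change -1.49, SE 0.184, adjusted p = 0.0224). EGFL6 was nearly level among the perimacula libraries and spread more at the fovea, while CAPN6 was higher in RM04 at both locations. GPC3, a glypican that carries heparan sulfate, was 2.14-fold higher at the perimacula (14.5 to 39.3 CPM at the fovea and 39.9 to 63 CPM at the perimacula, adjusted p = 0.0386). TMEFF2, a membrane protein with EGF-like and follistatin-like domains, was 2.16-fold higher (16.1 to 32.1 CPM at the fovea and 25.3 to 97.3 CPM at the perimacula, adjusted p = 0.0468). The groups of GPC3 did not overlap and those of TMEFF2 did. CMTM5 (8.35 to 12 CPM at the fovea and 17 to 31.5 CPM at the perimacula), the serine protease TMPRSS5 (5.68 to 11.4 CPM at the fovea and 14.1 to 24.9 CPM at the perimacula) and the tyrosylprotein sulfotransferase TPST1 (11.3 to 37.5 CPM at the fovea and 23.9 to 68.4 CPM at the perimacula) were 2.11-, 1.98- and 1.83-fold higher at the perimacula. CMTM5 and TMPRSS5 did not overlap, and both were highest in the perimacula library with the most myelin RNA, whose part in the result was not tested.

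**Figure D2:**
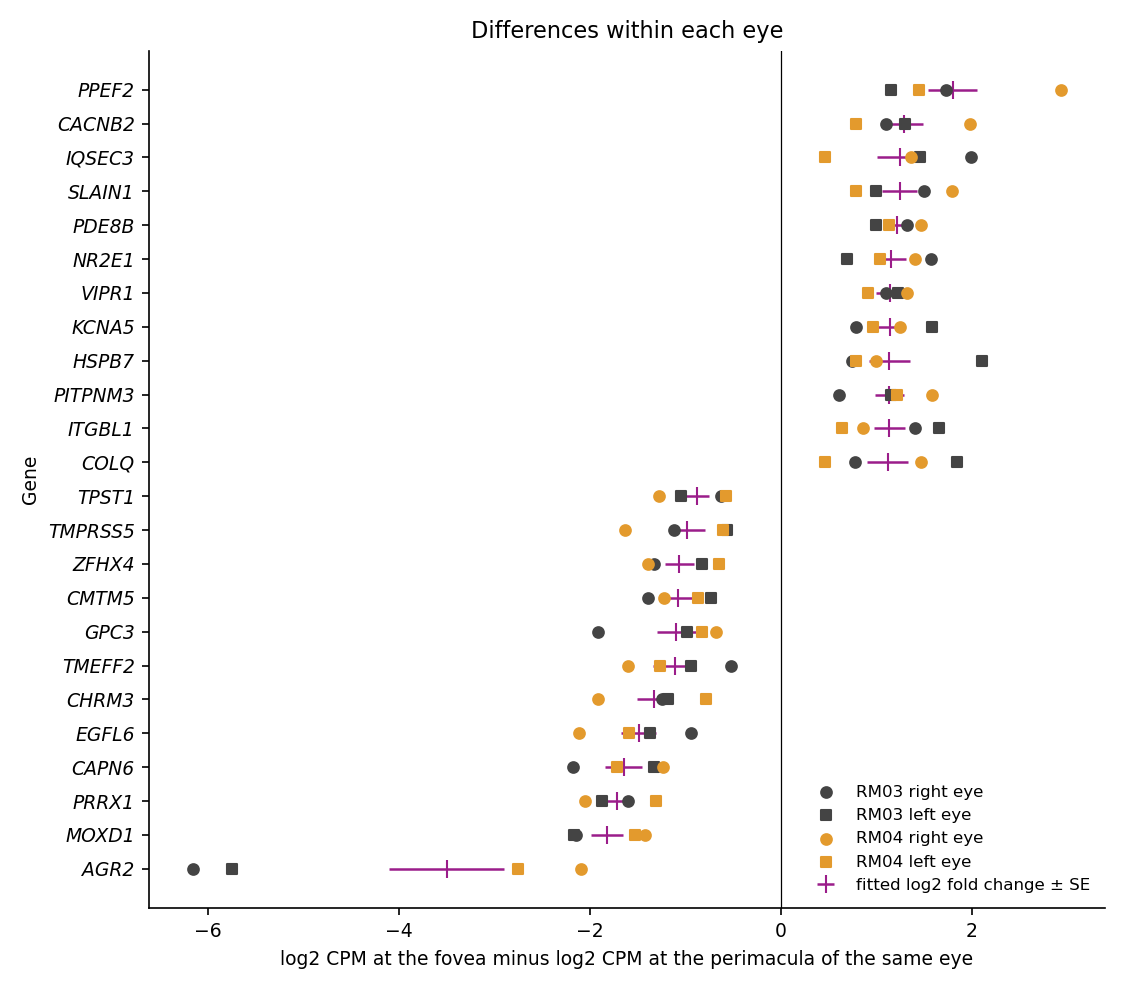
The difference in log2 CPM between the fovea and the perimacula of each eye (horizontal) for the 12 called genes in each direction with the largest fitted changes among those averaging 3 log2 CPM or more (vertical), with animals by colour and eyes by marker shape, and the fitted log2 fold change with its SE as a purple bar. All 4 eyes lie on the same side of 0 for each gene, and AGR2 differs more between the animals than any other gene shown.

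Towards the fovea the gene with the lowest p was GABRA3, a subunit of the GABA-A receptor. It had 18.2, 16.1, 10.3 and 9.81 CPM at the fovea and 5.86, 5.33, 3.22 and 2.3 CPM at the perimacula (log2 fold change 1.74, SE 0.135, adjusted p = 0.00693), with no overlap and a like difference in each eye, 1.63, 1.59, 1.67 and 2.08 log2 units. Among the fits without 1 library its call was lost only without the left eye of RM04 at the fovea. MTFR1, a regulator of mitochondrial fission, had 23.2, 21.5, 19.5 and 19.5 CPM at the fovea and 12, 10.7, 10.3 and 12 CPM at the perimacula (log2 fold change 0.89, SE 0.0864, adjusted p = 0.0162). Within a location MTFR1 varied little, and the groups were far apart for that spread.

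Among called genes that averaged 3 log2 CPM or more over the 8 libraries and had 1 identifier and the same direction in 4 of 4 eyes, the 12 with the largest differences towards the fovea were PPEF2, CACNB2, IQSEC3, SLAIN1, PDE8B, NR2E1, VIPR1, KCNA5, HSPB7, PITPNM3, ITGBL1 and COLQ, between 2.17- and 3.48-fold higher. PPEF2, a protein phosphatase with EF hands known from photoreceptors, had 15.2, 12.4, 22.6 and 15.6 CPM at the fovea and 4.56, 5.55, 2.92 and 5.7 CPM at the perimacula (log2 fold change 1.80, SE 0.255, adjusted p = 0.0236). Its highest library was the fovea of the right eye of RM04, the library with the most rod markers, and the part of those markers in this result was not tested. The rod genes SAG and PDE6A had 7.97, 7.18, 161 and 28 CPM and 4.61, 3.96, 81.1 and 10.8 CPM at the fovea and were not called (adjusted p = 0.727 and 0.799). CACNB2, a beta subunit of voltage-gated calcium channels, had 11.7, 9.72, 19.5 and 13.5 CPM at the fovea and 5.44, 3.93, 4.9 and 7.82 CPM at the perimacula (log2 fold change 1.29, SE 0.199, adjusted p = 0.0279). CACNB2 was also highest in that library, and its groups did not overlap.

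PDE8B, a phosphodiesterase that breaks down cyclic AMP, had 14.3, 17, 24.2 and 23.8 CPM at the fovea and 5.7, 8.52, 8.7 and 10.8 CPM at the perimacula (log2 fold change 1.22, SE 0.144, adjusted p = 0.0224). Its per-eye differences lay close together, at 1.32, 1.00, 1.47 and 1.13 log2 units. NR2E1, an orphan nuclear receptor, had 21.7, 19.2, 44.7 and 46.3 CPM at the fovea and 7.24, 11.9, 16.8 and 22.6 CPM at the perimacula (log2 fold change 1.15, SE 0.157, adjusted p = 0.0226), and it was higher in RM04 than in RM03 at both locations. IQSEC3, an exchange factor for ARF GTPases, differed more by animal than by location, at 12.7, 12.3, 169.8 and 169 CPM at the fovea and 3.15, 4.45, 66.1 and 122 CPM at the perimacula (log2 fold change 1.25, SE 0.242, adjusted p = 0.0415). SLAIN1, a microtubule end protein, had 13.1 to 16.2 CPM at the fovea and 4.64 to 8.47 CPM at the perimacula (adjusted p = 0.0252). PITPNM3, of the phosphatidylinositol transfer protein family, had 10.9 to 29.3 CPM at the fovea and 5.53 to 12.6 CPM at the perimacula (adjusted p = 0.0224). ITGBL1, a secreted protein with integrin-like repeats, had 81.9 to 143 CPM at the fovea and 43.8 to 54.1 CPM at the perimacula (adjusted p = 0.0236), and COLQ, the collagen tail of acetylcholinesterase, 12.3 to 17.1 CPM at the fovea and 4.39 to 8.86 CPM at the perimacula (adjusted p = 0.0403). Of these 4 only PITPNM3 had overlapping groups.

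Contractile genes of smooth muscle, which in choroid surround arterioles and also form strands in the stroma, were called in number towards the fovea. Of 18 tested, 8 were called, all higher at the fovea, against 1.7% of all genes tested. A further 7 made 15 that had an unadjusted p under 0.05 in that direction, against 11.3% of all genes tested, and the list's median log2 fold change was 0.50. Their CPM summed to 10017, 12834, 9879.8 and 8238 at the fovea and to 7412, 6113, 5589 and 5786 at the perimacula, with no overlap. Like all 24 lists, this one was chosen with earlier results of these data known. Its counts are therefore not an independent comparison with the shares of all genes tested. ACTA2, smooth muscle actin, had 2509, 2872, 2383 and 1957 CPM at the fovea and 1669, 1268, 1182 and 1208 CPM at the perimacula (log2 fold change 0.87, SE 0.109, adjusted p = 0.0224). MYH11, smooth muscle myosin heavy chain, had 2675, 3903, 2837 and 2207 CPM at the fovea and 1779, 1334, 1452 and 1531 CPM at the perimacula (log2 fold change 0.92, SE 0.159, adjusted p = 0.0323). The left eye of RM03 was the highest library of both genes and gave the largest of the 4 per-eye differences.

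MYOCD, the coactivator that drives the contractile programme, had 18, 22.4, 21 and 19.4 CPM at the fovea and 9.78, 7.06, 11 and 12.9 CPM at the perimacula (log2 fold change 1.01, SE 0.155, adjusted p = 0.0279). CASQ2, a calcium store protein, had 92.1, 108, 81.7 and 63.5 CPM at the fovea and 60.1, 44.3, 34.2 and 32.9 CPM at the perimacula (log2 fold change 1.03, SE 0.122, adjusted p = 0.0224). The groups of MYOCD and of CASQ2 did not overlap. MYLK, myosin light chain kinase, was 1.81-fold higher at the fovea, enteric actin ACTG2 1.71-fold, caldesmon, CALD1, 1.42-fold, and KCNMB1, a subunit of the large-conductance potassium channel, 1.72-fold. Of these 4 only CALD1 overlapped between locations. KCNA5, a voltage-gated potassium channel of arterial muscle, had 28, 32.7, 24.2 and 19.6 CPM at the fovea and 16.2, 10.9, 10.2 and 10.1 CPM at the perimacula (log2 fold change 1.14, SE 0.132, adjusted p = 0.0224). HSPB7, a small heat shock protein of muscle, had 19.1, 26, 12 and 11.4 CPM at the fovea and 11.4, 6, 5.98 and 6.6 CPM at the perimacula (log2 fold change 1.14, SE 0.214, adjusted p = 0.0386). CNN1 (log2 fold change 0.68, adjusted p = 0.0525), DES (log2 fold change 0.37, adjusted p = 0.325) and HSPB6 (log2 fold change -0.11, adjusted p = 0.708) of the same list were not called.

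Markers of pericytes, the mural cells of capillaries, and of endothelium leaned the same way. Of all genes tested, 1.7% were called higher at the fovea. Of 9 pericyte markers 3 were called higher at the fovea (median log2 fold change 0.46): MCAM, at 643, 793, 468 and 534 CPM at the fovea and 454, 471, 288 and 305 CPM at the perimacula (log2 fold change 0.70, SE 0.0846, adjusted p = 0.0224), CSPG4 (1.46-fold, adjusted p = 0.0358) and RGS5 (1.29-fold, adjusted p = 0.0351). PDGFRB, the receptor that defines mural cells, was not called (log2 fold change 0.13, adjusted p = 0.395). Of 15 endothelial markers 5 were called, all higher at the fovea, and all 15 had a positive value, with a median of 0.41. PECAM1, an adhesion molecule of all endothelium, had 382, 483, 488 and 395 CPM at the fovea and 265, 284, 277 and 305 CPM at the perimacula (log2 fold change 0.63, SE 0.0976, adjusted p = 0.028), with no overlap. The transcription factor ERG, the junction proteins CLDN5 and ESAM and the cell cycle regulator RGCC were 1.47-, 1.4-, 1.37- and 1.67-fold higher, with adjusted p from 0.0347 to 0.0482. Von Willebrand factor, VWF (log2 fold change 0.14, adjusted p = 0.634), and CDH5 (log2 fold change 0.28, adjusted p = 0.0684) were not called.

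The ligand VEGFA and the receptor FLT1 of VEGF signalling were higher at the fovea. VEGFA had 227, 209, 452 and 462 CPM at the fovea and 83.4, 131, 153 and 257 CPM at the perimacula (log2 fold change 1.09, SE 0.183, adjusted p = 0.0311), 338 ± 138 against 156 ± 73.1 (SD, n = 4). Each eye was higher at the fovea, and the groups overlapped in that the left eye of RM04 had more VEGFA at its perimacula than either eye of RM03 had at its fovea. FLT1, which binds VEGFA, had 127, 130.4, 245 and 221 CPM at the fovea and 89.7, 107, 116 and 119.8 CPM at the perimacula (log2 fold change 0.69, SE 0.125, adjusted p = 0.0358), with no overlap. KDR, the main signalling receptor of endothelium, had 243, 287, 452 and 427 CPM at the fovea and 186, 236, 258 and 268 CPM at the perimacula and missed the threshold (log2 fold change 0.53, SE 0.115, adjusted p = 0.0546), as did the ligand PGF (log2 fold change 0.49, adjusted p = 0.167) and the receptor TEK (log2 fold change 0.41, adjusted p = 0.0783). Of the 15 genes of this list 2 were called, both higher at the fovea, against 1.7% of all genes tested. The list's median was 0.33, and 4 of the 15 genes had a value of the other sign. Among these were the receptor NRP2 (log2 fold change -0.27, adjusted p = 0.125) and the angiopoietin ANGPT1 (log2 fold change -0.40, adjusted p = 0.285). VEGFA moved with the summed markers of the pigment epithelium, whose sums were also larger at the fovea of each eye, and their part in the result was not tested.

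The pigment epithelium's own genes had positive values nearly throughout, few of which passed the test. Of 19 markers 3 were called, all higher at the fovea, 16 had an unadjusted p under 0.05 in that direction, and the median log2 fold change was 0.75. Of all genes tested, 1.7% were called and 11.3% had such a p in that direction. CST3, an inhibitor of cysteine proteases, had 2707, 2755, 2887 and 3104 CPM at the fovea and 1640.4, 1807, 1879 and 2334 CPM at the perimacula (log2 fold change 0.59, SE 0.0909, adjusted p = 0.028). TRPM3, a cation channel, had 256, 222, 395 and 424 CPM at the fovea and 99.3, 164, 171 and 261 CPM at the perimacula (log2 fold change 0.89, SE 0.176, adjusted p = 0.0444). TTR, transthyretin, had 2239, 1784, 3701 and 3466 CPM at the fovea and 993, 1556, 1837 and 2179.8 CPM at the perimacula (log2 fold change 0.75, SE 0.151, adjusted p = 0.0456). CST3 separated the groups, while TRPM3 and TTR were higher in RM04 and overlapped. RPE65, the isomerase of the visual cycle, had 4834, 3186, 7956 and 7891 CPM at the fovea and 1516, 2664, 4128 and 6008 CPM at the perimacula and was not called (log2 fold change 0.79, SE 0.217, adjusted p = 0.0977). Of 15 visual cycle genes 1 was called, higher at the fovea, against 1.7% of all genes tested, with a list median of 0.73. The median of the pigment epithelium markers differed between eyes, at 1.32 and 0.23 in the right and left eye of RM03 and 1.01 and 0.44 in those of RM04.

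Genes of melanin synthesis, which pigment epithelium and choroidal melanocytes share, had negative values except for the regulator MITF. No member of 11 was called by edgeR, 5 had an unadjusted p under 0.05 towards the perimacula, against 8.75% of all genes tested, and 1 towards the fovea, against 11.3%. DESeq2 called 5 and 1 in those directions, against 3.6% and 6.07% of all genes tested. The list's median was -0.24. PMEL, the scaffold of the melanosome, had 3709, 4119, 2193 and 2364 CPM at the fovea and 4359, 4870.1, 3318 and 2800.3 CPM at the perimacula (log2 fold change -0.33, SE 0.0928, adjusted p = 0.104). TYR, tyrosinase, had 605, 621, 579 and 591 CPM at the fovea and 746, 767, 830.1 and 616 CPM at the perimacula (log2 fold change -0.30, SE 0.0916, adjusted p = 0.12). The endothelin receptor EDNRB, which melanocytes carry, had 1175, 1065, 1075 and 1069.7 CPM at the fovea and 1382, 1467, 1786 and 1200.0 CPM at the perimacula (log2 fold change -0.41, SE 0.12, adjusted p = 0.114). PMEL, TYR and EDNRB had their larger value at the perimacula in each of the 4 eyes, and EDNRB did not overlap.

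**Figure D3:**
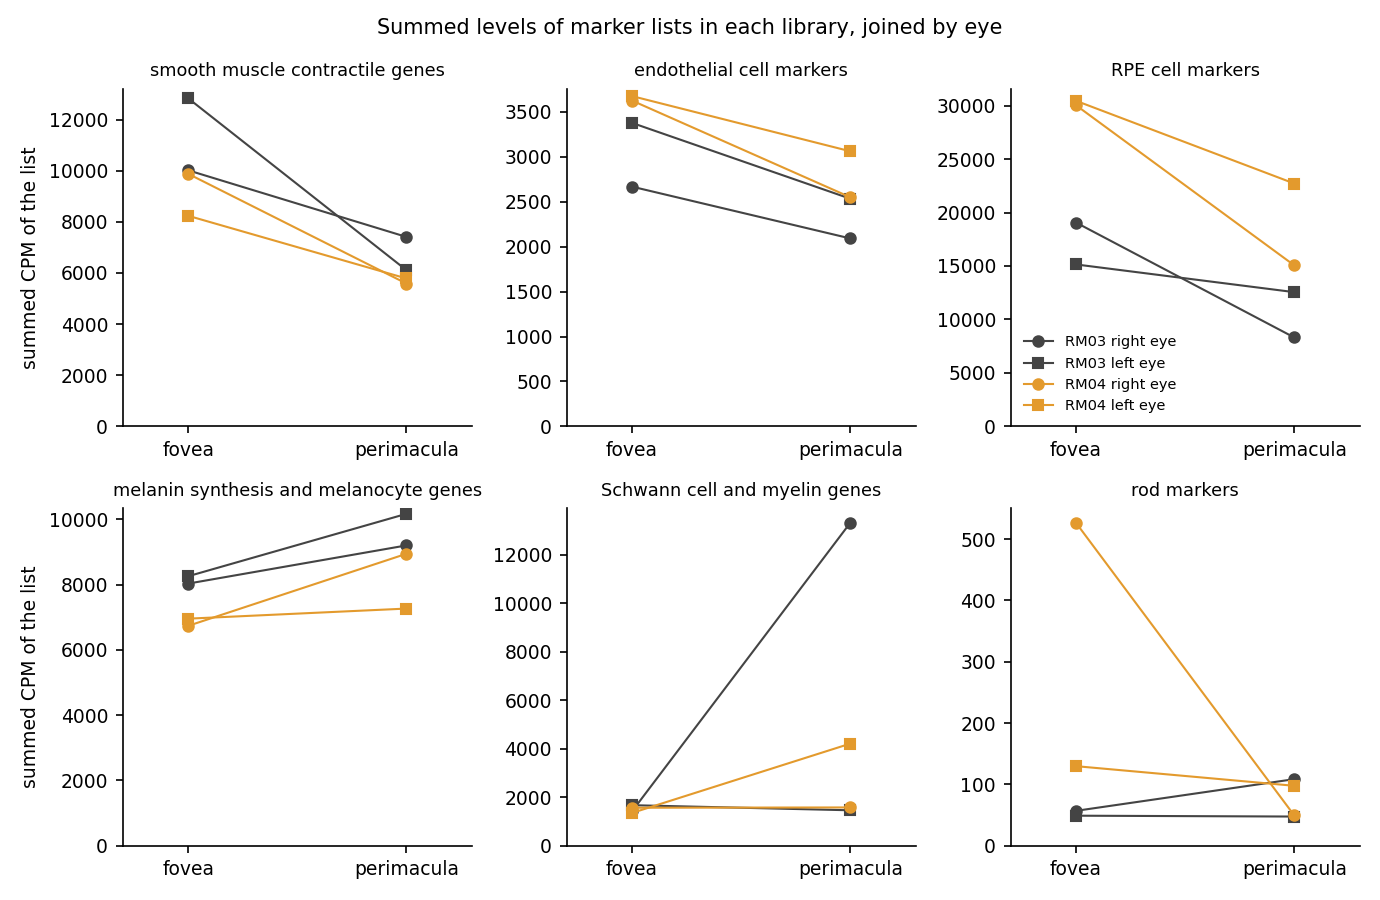
Summed CPM of 6 marker lists (vertical) at the fovea and the perimacula (horizontal), with a line for each eye, animals by colour and eyes by marker shape. Smooth muscle genes lie at 8238 CPM or more at the fovea and at 7412 CPM or less at the perimacula, while myelin genes are high in 2 perimacula libraries and rod markers in 1 fovea library.

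Genes that bundle actin or build adhesion plaques included 3 of the 7 genes that the joint fit with the periphery also called. SORBS2, an adapter between actin and adhesion sites, had 413, 449, 414 and 381 CPM at the fovea and 264, 264, 202 and 232 CPM at the perimacula (log2 fold change 0.79, SE 0.0725, adjusted p = 0.0131). MYO1E, a class I myosin that links membrane to actin, had 76.6, 79.4, 86.9 and 83.1 CPM at the fovea and 53.4, 55.4, 51.8 and 56.4 CPM at the perimacula (log2 fold change 0.59, SE 0.059, adjusted p = 0.0176). PALLD, the actin cross-linker palladin, had 158, 184, 238 and 204 CPM at the fovea and 102, 87, 128 and 156 CPM at the perimacula (log2 fold change 0.75, SE 0.103, adjusted p = 0.0232). None of the 3 overlapped between locations. The smallest difference among the called members was that of VCL, vinculin, which was 1.25-fold higher (327 ± 21 against 263 ± 9.41 CPM, SD, n = 4, adjusted p = 0.0386). Of 22 tested, 4 were called, all higher at the fovea, against 1.7% of all genes tested, with a median of 0.25. TLN1, talin, was not called (log2 fold change 0.04, adjusted p = 0.77).

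Genes by which autonomic nerves and vasoactive signals act on the choroid were called in both directions. Of 24 tested, 2 were called higher at the fovea and 1 higher at the perimacula, against 1.7% and 0.644% of all genes tested. The median was 0.03. CHRM3, the muscarinic M3 receptor, had 24.5, 24.9, 23 and 25.8 CPM at the fovea and 57.9, 56.6, 87.2 and 44.6 CPM at the perimacula (log2 fold change -1.32, SE 0.184, adjusted p = 0.0236). Its 4 fovea libraries lay within 3 CPM of each other, below every perimacula library. NOS1, neuronal nitric oxide synthase, had 7.4, 8.25, 5.83 and 4.79 CPM at the fovea and 2.76, 3.03, 2.46 and 2.21 CPM at the perimacula (log2 fold change 1.31, SE 0.136, adjusted p = 0.0188). VIPR1, a receptor for vasoactive intestinal peptide, had 16.5, 23.7, 15.1 and 14.9 CPM at the fovea and 7.67, 10.1, 6.02 and 7.87 CPM at the perimacula (log2 fold change 1.14, SE 0.152, adjusted p = 0.0224). Both were higher in every fovea library than in any perimacula library. The muscarinic M2 receptor CHRM2 (log2 fold change 0.50, adjusted p = 0.0784), endothelial NOS3 (log2 fold change 0.63, adjusted p = 0.0784) and the alpha-1A adrenergic receptor ADRA1A (log2 fold change -1.44, adjusted p = 0.124) were not called.

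The BMP ligands BMP2, BMP4, BMP5 and BMP6 were higher at the fovea. BMPs are secreted signals that act through receptor serine kinases and SMAD proteins and induce ID genes. BMP6 had 41.5, 34.2, 41 and 39.6 CPM at the fovea and 19, 25.4, 14.9 and 23.2 CPM at the perimacula (log2 fold change 0.93, SE 0.161, adjusted p = 0.0323). BMP5 had 79.7, 83.2, 59.8 and 66 CPM at the fovea and 47, 49.7, 45.5 and 37.6 CPM at the perimacula (log2 fold change 0.67, SE 0.0791, adjusted p = 0.0224). BMP2 had 29.9, 23.6, 26.3 and 25 CPM at the fovea and 13.6, 20.3, 13.6 and 17.3 CPM at the perimacula (log2 fold change 0.70, SE 0.143, adjusted p = 0.0492). None of the 3 overlapped between locations. BMP4, which pigment epithelium makes, had 323, 269, 498 and 516 CPM at the fovea and 157, 231, 305 and 338 CPM at the perimacula (log2 fold change 0.63, SE 0.12, adjusted p = 0.0403), and it was higher in RM04 at both locations. The receptor BMPR2 was 1.28-fold higher at the fovea (adjusted p = 0.044) and the target ID1 1.44-fold higher (adjusted p = 0.0486), while ID4 was 1.38-fold higher at the perimacula (adjusted p = 0.0436). BMP7 had a value of the other sign from the 4 called ligands and was not called (log2 fold change -0.34, adjusted p = 0.247). Over the 29 members tested, TGF-beta genes included, 6 were called higher at the fovea and 1 higher at the perimacula, with a median of 0.11. The shares of all genes tested were 1.7% and 0.644%.

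Schwann cell and myelin genes had the lowest median of the 24 lists, -1.23, and no member of 17 was called by edgeR. At an unadjusted p under 0.05, 12 had negative values and 1 a positive one, against 8.75% and 11.3% of all genes tested, and DESeq2 called 8 higher at the perimacula, against 3.6%. MBP, myelin basic protein, had 76, 77.9, 67.9 and 71.2 CPM at the fovea and 1677, 86.5, 96.5 and 635 CPM at the perimacula (log2 fold change -2.96, SE 0.886, adjusted p = 0.12). The difference came from the right eye of RM03 and the left eye of RM04, and the other 2 perimacula libraries had under 100 CPM. ERBB3, a neuregulin receptor of Schwann cells and melanocytes, had 618, 810.2, 572 and 534 CPM at the fovea and 721, 639, 512 and 514 CPM at the perimacula (log2 fold change 0.09, SE 0.0921, adjusted p = 0.64), with those 2 libraries inside the range of the other 6.

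The remaining cell lists held few calls. Of all genes tested, edgeR called 1.7% towards the fovea and 0.644% towards the perimacula, and DESeq2 6.07% and 3.6%. An unadjusted p under 0.05 was found in edgeR for 11.3% and 8.75%. Of 15 fibroblast markers 1 was called, dermatopontin, DPT, a matrix protein, at 91.4, 105, 99 and 89.6 CPM at the fovea and 54.7, 46.6, 44.5 and 69.5 CPM at the perimacula (log2 fold change 0.84, SE 0.14, adjusted p = 0.0307), while decorin, DCN, was not called (log2 fold change -0.50, adjusted p = 0.419), nor was the collagen COL1A1 (log2 fold change 0.11, adjusted p = 0.831). No collagen of 18 was called by edgeR, 5 had an unadjusted p under 0.05 towards the fovea and 1 towards the perimacula, and DESeq2 called 3 and 1. COL8A1 of Bruch's membrane and the choroid did not overlap, at 145, 124, 158 and 173 CPM at the fovea and 81.4, 113, 57.4 and 116 CPM at the perimacula (log2 fold change 0.70, SE 0.22, adjusted p = 0.131). No macrophage marker of 15 was called by edgeR or DESeq2, with 1 and 2 at an unadjusted p under 0.05 towards the fovea and the perimacula, and CD163, a scavenger receptor, was among those not called (log2 fold change -0.24, adjusted p = 0.37). The same held for 11 lymphocyte and mast cell markers, with 0 and 1, and for 6 red blood cell genes, with 0 and 0. Of 18 immediate early genes, which handling of tissue can induce, none was called by edgeR, 1 in each direction had an unadjusted p under 0.05 and DESeq2 called 1 in each direction.

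Many markers chosen for neural retina were uneven among libraries, while others were high in all 8 libraries of this tissue. RBPMS had 151 to 260 CPM in them and CNGB3 70 to 414 CPM. Whether such RNA came from neural retina was not tested. No rod marker of 9 and no cone marker of 9 was called by edgeR, with 2 and 1 at an unadjusted p under 0.05, all towards the fovea, and DESeq2 called 1 of each list. Of all genes tested, 11.3% had such a p towards the fovea, and DESeq2 called 6.07% in that direction. The list medians, 0.68 and 0.79, came with per-eye medians from -1.93 to 3.85 for rods and from -1.07 to 3.37 for cones. CNGB3, a cone channel subunit, stood out among them at 212, 161, 414 and 375 CPM at the fovea and 70, 120.1, 128 and 272 CPM at the perimacula (log2 fold change 0.98, SE 0.248, adjusted p = 0.0832), and ARR3, cone arrestin, had 3.41, 2.64, 53.2 and 9.97 CPM at the fovea and 21.5, 2.15, 2.31 and 4.28 CPM at the perimacula. ARR3 was above 50 CPM in the right eye of RM04 alone, while CNGB3 was nearly as high in its left eye. CRX, a transcription factor of photoreceptors, was called higher at the fovea, at 15.2, 14.3, 17.1 and 15.9 CPM at the fovea and 5.57, 9.69, 6.16 and 8.6 CPM at the perimacula (log2 fold change 1.05, SE 0.184, adjusted p = 0.033), with no overlap. Its 4 fovea libraries lay within 3 CPM of each other. The summed rod markers there ran from 48.9 to 526 CPM, and the part of neural retina RNA in the CRX result was not tested. TFAP2B, an AP-2 factor of neural crest and of amacrine cells, was called higher at the perimacula, at 0.72, 1.13, 0.818 and 1.5 CPM at the fovea and 3.17, 1.89, 3.46 and 4.73 CPM at the perimacula (log2 fold change -1.64, SE 0.294, adjusted p = 0.0351).

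Genes tied to macular disease included 2 called members of 18 tested, VEGFA among them, both higher at the fovea, with a list median of 0.39. Of 17 complement genes 1 was called, higher at the fovea, and their median was 0.02. Both counts stand against 1.7% of all genes tested. C3, the central component of the cascade, had 264, 336, 818 and 1114 CPM against 218, 194, 834 and 671 CPM and was not called (log2 fold change 0.45, SE 0.131, adjusted p = 0.113). ABCA4, the flippase mutated in Stargardt disease, had 281, 261, 504 and 445 CPM at the fovea and 115, 164, 121 and 312 CPM at the perimacula (log2 fold change 1.05, SE 0.26, adjusted p = 0.0784). TIMP3, an inhibitor of metalloproteases in Bruch's membrane, had 4078, 4320.2, 5487 and 5349.5 CPM at the fovea and 2662, 3389.9, 2529.8 and 4011 CPM at the perimacula (log2 fold change 0.60, SE 0.153, adjusted p = 0.0839). TIMP3 did not overlap between locations and ABCA4 did, and neither passed the threshold. BEST1 (log2 fold change 0.67, adjusted p = 0.125), EFEMP1 (log2 fold change 0.04, adjusted p = 0.937) and HTRA1 (log2 fold change 0.15, adjusted p = 0.349) were not called.

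**Figure D4:**
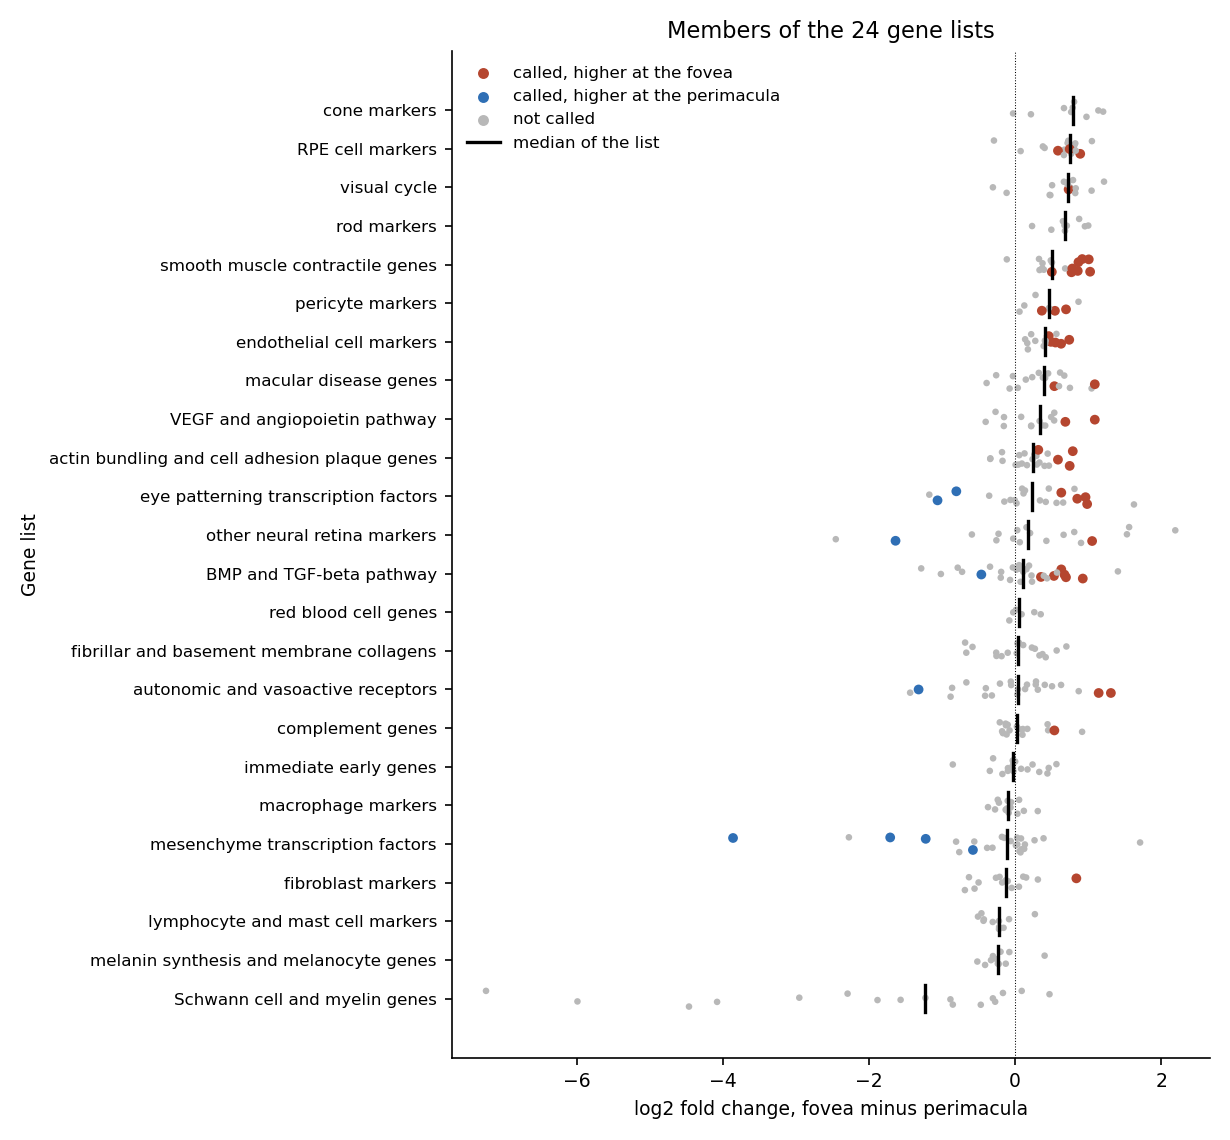
The log2 fold change (horizontal, fovea minus perimacula) of each tested member of the 24 gene lists (vertical), with called members in red (higher at the fovea) or blue (higher at the perimacula), others in grey, and the list's median as a black bar. Called smooth muscle, pericyte and endothelial genes lie to the right of 0, the 4 called mesenchyme factors to the left, and myelin genes spread far to the left with no call.

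The levels at the other 2 locations of this tissue place these genes in a wider order, with CPM normalized over the 16 RPE/choroid libraries and with the periphery on a flow cell of its own, from which it cannot be told apart. EBF3 was high at the perimacula alone, since it had 0.0647 to 0.396 CPM at the nasal location and 0.605 to 1.21 CPM at the periphery, both below the lowest perimacula library of 4.28 CPM. PRRX1 had 37.1 to 102 CPM at the nasal location, overlapping both the fovea and the perimacula, and 67.1 to 107 CPM at the periphery, overlapping the nasal location and the perimacula but not the fovea. MOXD1 was lowest at the fovea and highest at the periphery, at 31.6 to 63 CPM, with the nasal location (10.4 to 22.6 CPM) overlapping the perimacula. CHRM3 had 19.1 to 46 CPM at the nasal location, a range that held that of the fovea, and 45.7 to 65.2 CPM at the periphery, within that of the perimacula. ZFHX4 had 45.6 to 77.4 CPM at the periphery, above every perimacula library.

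Among the genes higher at the fovea, SORBS2 had 270.2 to 367 CPM at the nasal location and 81.7 to 119 CPM at the periphery, and MYO1E had 57.7 to 75.2 CPM and 35 to 42.8 CPM. For both genes no location's range overlapped another's, in the order fovea, nasal, perimacula and periphery, although for SORBS2 the lowest nasal library (270.2 CPM) and the highest perimacula library (270.0 CPM) were level. ACTA2 had 946 to 1785 CPM and 154 to 670.3 CPM, and MYH11 had 1137 to 2378 CPM and 65.1 to 534 CPM, with the fovea's median the highest of the 4 locations for both genes. BMP6 had 10.2 to 26.1 CPM and 1.24 to 5.04 CPM, and VEGFA had 154 to 252 CPM and 47.8 to 179 CPM. GABRA3 varied widely at the nasal location, at 1.4 to 21.8 CPM, and had 0.337 to 1.35 CPM at the periphery. PALLD had 122 to 243 CPM at the nasal location, a range that held that of the fovea, and AGR2 had 1.07 to 73.8 CPM there and 0 to 1.74 CPM at the periphery.

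**Figure D5:**
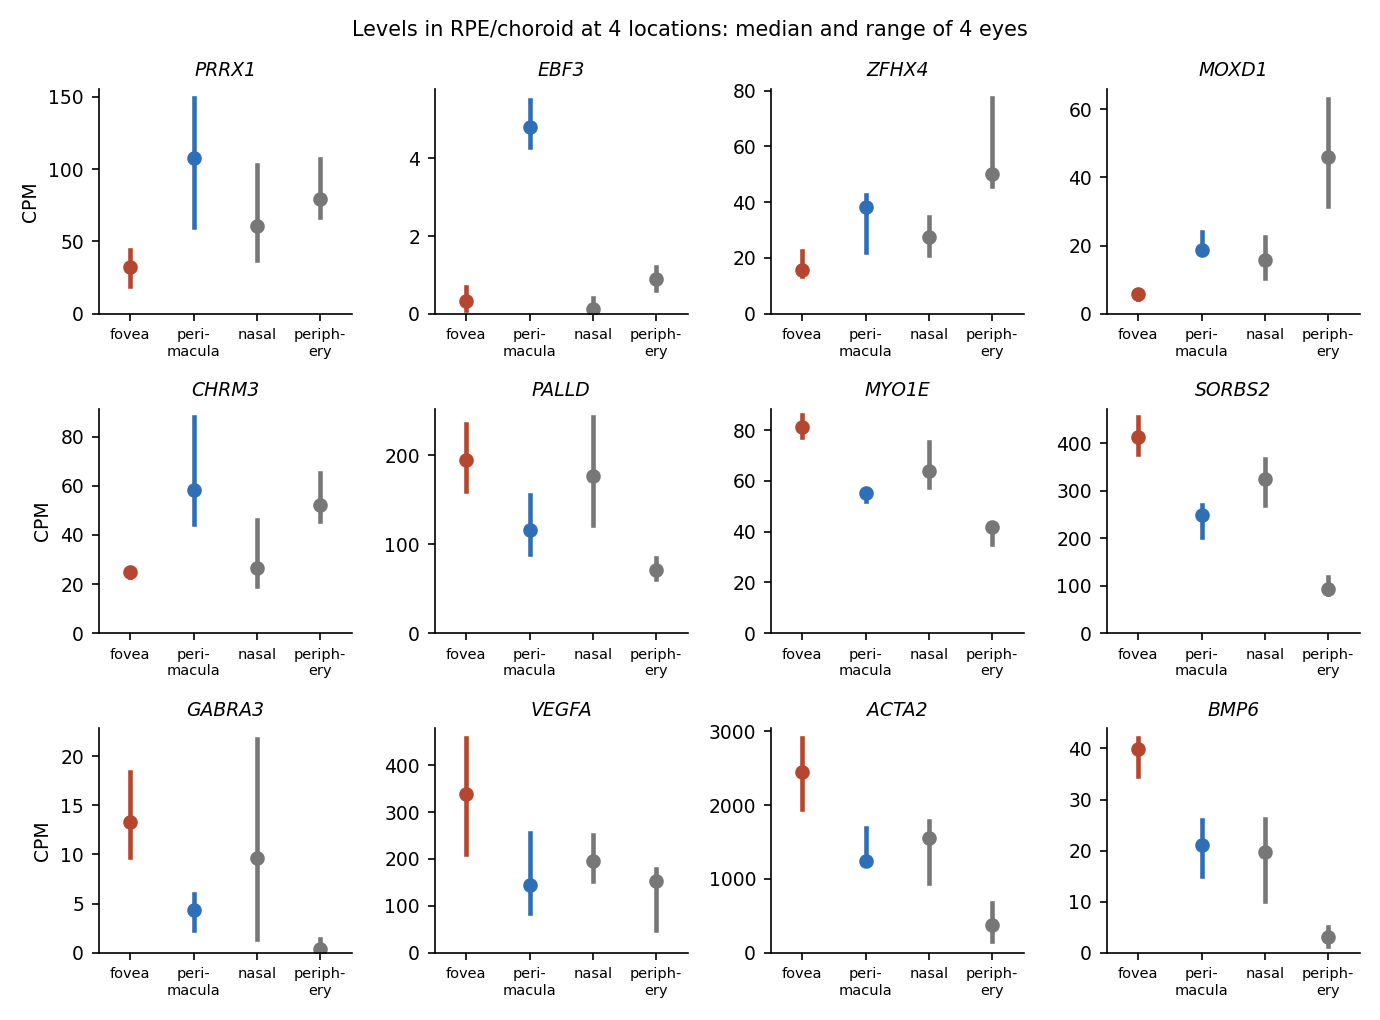
Levels of 12 genes in RPE/choroid (vertical, CPM normalized over 16 libraries, each panel with its own scale from 0) by location (horizontal, from the fovea to the periphery), with the median as a point and the lowest to the highest of 4 eyes as a bar. EBF3 is at 4 CPM or more at the perimacula alone, while MOXD1 and ZFHX4 are highest and SORBS2, ACTA2 and BMP6 lowest at the periphery.

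Whether the same genes differ between these locations in the neural retina of the same eyes was put to an interaction test, in which 3717 of 15964 genes (23.3%) were called. Retina itself had 5895 of 15059 genes (39.1%) called between the fovea and the perimacula. The check took 28 genes, the 12 in each direction chosen above a mean of 3 log2 CPM and those called in the joint fit with the periphery, and 20 of them differed between the tissues. These genes were chosen for their differences in the same RPE/choroid libraries, which favours a call in advance. The 20 of 28 can therefore not be set against the 23.3%. EBF3 had a log2 fold change of 1.35 in retina (adjusted p = 0.000892), the other sign from that in RPE/choroid, with a tissue difference of -5.17 (adjusted p = 2.41e-05). ZFHX4 had 1.23 in retina (adjusted p = 0.00331) and SORBS2 -0.93 (adjusted p = 0.00036), each also with the other sign. PRRX1 was not called in retina (0.33, adjusted p = 0.208), with a tissue difference of -2.07 (adjusted p = 4.59e-05). PPEF2 was lower at the fovea of the retina (-1.08, adjusted p = 0.000474) and higher at that of RPE/choroid, with a tissue difference of 2.84 (adjusted p = 9.95e-05). AGR2 and MOXD1 were higher at the perimacula in retina too (-2.84 and -1.41, adjusted p = 0.00253 and 0.00142), and MYO1E was higher at the fovea there (0.49, adjusted p = 0.0111).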

How the data were processed

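Total RNA of at least RIN 6.5 was extracted from 2 mm punches and sequenced as poly-A selected, paired-end reads of 100 bases. As the submitters' processing notes and the study's methods give it, the authors quantified transcripts with Salmon 0.13 against Mmul_8.0.1 and summarised them to genes. The deposited column is headed TPM but holds estimated counts per gene (length-scaled TPM), which sum to 7932258 to 39439053 in a lane, so they were treated as estimated (expected) counts.

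The 5 lanes of each library were summed and rounded, and 10 repeated entries with the same values were dropped from 19432. Genes had to pass edgeR's filter at a minimum count of 10, and TMM-normalized counts were fitted with edgeR 4.0.16 (quasi-likelihood test, two-sided, animal as covariate, Benjamini-Hochberg adjustment, threshold 0.05) over the 8 libraries. DESeq2 1.42.0, limma 3.58.1, R 4.3.3, Python 3.11.15, numpy 2.4.6, pandas 2.3.3 and matplotlib 3.10.9 were also used. SE is that of the log2 fold change, taken as its absolute value divided by the square root of the quasi-likelihood F statistic. The SD of CPM is over the 4 eyes. An estimated count assigns reads shared by related transcripts by a model, so near-identical paralogs are uncertain, and it carries no molecular identifiers. The fits were tested on simulated counts, in which 200 genes were changed by 1.5 log2 units. Of these, 82% were recovered among 15215 genes with 3.53% false calls, and 75% with 5.06% in the interaction test among 15964 genes. The simulated counts were drawn independently for each gene and library, without shifts in cell markers shared by many genes of a library. The real libraries had such shifts, so the share of false calls in the real comparison is not known from this. Recovery of smaller differences was not tested, while the called genes had a median absolute log2 fold change of 0.71.

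The locations pair within an eye, since the labels tie both to the same eye. Deviations of the fovea and the perimacula from their group means correlated at 0.432 to 0.585 across genes within an eye, and at 0.394 to 0.586 between fellow eyes. The means were alike, at 0.507 and 0.526, and the reported fit takes the animal and not the eye as covariate. P-values over eyes measure the spread left among these 8 libraries once the animal is taken out, and not the spread among animals.

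The 8 libraries and the 24 gene lists were chosen with earlier results of these data known. Named genes were, among called genes with 1 identifier, a mean of at least 3 log2 CPM and the same direction in 4 of 4 eyes, the 12 with the largest change in each direction, the 6 with the lowest adjusted p, genes called with the periphery included, and called or defining members of the lists. Alternatives were the eye as a block, no covariate, DESeq2, RLE normalization, other filters, equal depth, each flow cell alone, further locations, and each eye left out. Leaving out single libraries or neural retina markers, and DESeq2 with the eye as a block, were added after the data had been seen. Gene names came with the files, and 2810 identifiers that share a symbol were not named. Some genes are not reported here. No sequence or coordinate was used here.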

Additional observations from a re-analysis of the deposited data

Results flagged for a closer look

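In 4 of 190 groups of 4 libraries 1 library lay far from the other 3. The measure was the ratio of its gap to the group's range on the log2 scale. Chance alone gives about 1 in 20, which is more than the 4 of 190 found. HSPB7 at the perimacula had a ratio of 0.848, with the right eye of RM03 above the others. NR2F1 at the fovea had 0.868, with the left eye of RM03 above the others. The summed cone markers at the perimacula had 0.853, with the left eye of RM04 above the others, and the summed genes of the VEGF and angiopoietin pathway at the perimacula had 0.837, with the left eye of RM03 above the others. In the left eye of RM04, CNGB3 alone made 272 of the 294 CPM of cone markers at the perimacula. No further test was made of these 4 groups.

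The difference between fovea and perimacula differed between RPE/choroid and neural retina for 20 of the 28 genes checked, by the interaction test, with the value in RPE/choroid minus that in retina given here on the log2 scale. Among genes higher at the fovea of RPE/choroid the values were 2.842 for PPEF2, 2.085 for PDE8B, 1.838 for NR2E1, 1.682 for SORBS2, 1.55 for CACNB2 and 1.49 for ITGBL1. Those of COLQ, VIPR1, KCNA5, SLAIN1, PITPNM3 and PALLD were 1.46, 1.459, 1.271, 1.213, 1.064 and 0.597. Among genes higher at the perimacula of RPE/choroid the values were -5.175 for EBF3, -2.328 for ZFHX4, -2.073 for PRRX1, -1.93 for CHRM3 and -1.423 for GPC3. Those of TPST1, EGFL6 and TMEFF2 were -1.282, -1.058 and -0.908. The other 8 of the 28, among them AGR2 and MOXD1, did not pass, which does not show that they act alike in the tissues. All 28 were chosen by their differences in these RPE/choroid libraries, which favours a call in this test.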

How the results depend on the processing

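The 357 genes kept their direction in every alternative in which they had a value, but the count of calls did not hold. With the eye as a replicate block, 0 genes were called in edgeR, 0 higher at the fovea and 0 at the perimacula (2804 at an unadjusted p under 0.05), against 1316 (877 and 439) in DESeq2 with that block. Without a covariate 0 were called, 0 in either direction (1524 at an unadjusted p under 0.05), and DESeq2 without the block called 1472 (924 and 548). The cause was not tested. With the periphery 7 were called (3 and 4), with the nasal location 541 (160 at the perimacula), and with all 4 locations 22 (11 and 11). The share of calls higher at the fovea was 72.5% in the edgeR fit reported, 62.8% in DESeq2 and 42.9% with the periphery. Leaving out 1 eye or 1 library gave 0 to 413 calls, 0 to 281 higher at the fovea and 0 to 132 at the perimacula. Without an eye, 0, 0, 0 and 1 were called, with 1872 to 2809 at an unadjusted p under 0.05. RLE normalization, other filters, equal depth and each flow cell alone gave 261 to 408. The interaction had 1687 calls without a covariate and 1811 to 2790 without an eye. Of the 90 named genes that were called, 89 held in DESeq2, 85 with RLE normalization and 0 with the eye as a block. List medians crossed 0 between alternatives for rod (-0.77 to 1.64) and cone markers (-0.21 to 1.96) and for the red blood cell (-0.27 to 0.24), fibroblast (-0.29 to 0.01), collagen (-0.11 to 0.18), mesenchyme (-0.25 to 0.0047), autonomic (-0.03 to 0.21), complement (-0.10 to 0.10) and immediate early lists (-0.08 to 0.10), and stayed at 0.44 to 0.63 for smooth muscle, 0.33 to 0.49 for endothelium, 0.53 to 0.95 for pigment epithelium and -0.31 to -0.15 for melanin genes. Brought to equal depth, the libraries gave 408 calls, 348 of them among the 357.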

Other observations

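Further called genes fell outside the rule for named genes, most for a low mean level, and were picked after their values had been seen. Genes of extracellular matrix were called in both directions. POSTN, periostin, a matrix protein of tissues under load, had 12.8, 7.63, 9.92 and 8.92 CPM at the fovea and 2.19, 0.927, 1.71 and 3.14 CPM at the perimacula (log2 fold change 2.33, SE 0.346, adjusted p = 0.0252). ACAN, the proteoglycan aggrecan, had 4.85, 6.12, 2.11 and 2.7 CPM at the fovea and 0.536, 0.835, 0.616 and 0.916 CPM at the perimacula (log2 fold change 2.33, SE 0.339, adjusted p = 0.0242). DMP1, an acidic protein known from bone and dentin, had 3.77, 2.24, 6.15 and 4.61 CPM at the fovea and 0.199, 0.665, 0.158 and 0.785 CPM at the perimacula (log2 fold change 3.16, SE 0.539, adjusted p = 0.0314). The groups of POSTN, ACAN and DMP1 did not overlap. HMCN1, hemicentin, was 2.15-fold higher at the fovea, the integrin subunit ITGA8 1.98-fold, the laminin chain LAMC3 1.51-fold and the tenascin TNN 1.49-fold. PODN, podocan, a leucine-rich matrix protein, was 1.64-fold higher at the perimacula, at 29.6, 33, 15.9 and 20.8 CPM at the fovea and 42.7, 48.5, 34 and 33.6 CPM at the perimacula (log2 fold change -0.71, SE 0.112, adjusted p = 0.0288).

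Channels and receptors outside the lists were called in both directions too. KCNG4, a modifier subunit of potassium channels, had 3.32, 2.83, 3.08 and 2.18 CPM at the fovea and 0.475, 1.02, 0.458 and 0.897 CPM at the perimacula (adjusted p = 0.0288). OXTR, the oxytocin receptor, had 1.51, 2.02, 6.86 and 3.81 CPM at the fovea and 0.429, 0.417, 1.85 and 2.04 CPM at the perimacula (log2 fold change 1.74, SE 0.252, adjusted p = 0.0242). KCNG4 did not overlap between locations, and OXTR did, with RM04 higher at both. PTGDR, a prostaglandin D2 receptor, was higher at the perimacula, at 3.05, 2.11, 0.775 and 1.18 CPM at the fovea and 7.9, 10.4, 2.45 and 2.69 CPM at the perimacula (log2 fold change -1.62, SE 0.213, adjusted p = 0.0224), and higher in RM03 at both locations.

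Transcription factors higher at the perimacula beyond those of the lists were SHOX2, a homeobox factor of limb and heart, at 3.32, 2.11, 1.05 and 0.954 CPM at the fovea and 6.51, 5.05, 3.17 and 4.08 CPM at the perimacula (log2 fold change -1.45, SE 0.239, adjusted p = 0.0303), and BNC2, a zinc finger factor, at 15.9, 16.2, 16 and 15.8 CPM at the fovea and 20.2, 21.4, 23.6 and 28.3 CPM at the perimacula (log2 fold change -0.54, SE 0.0933, adjusted p = 0.0321). BNC2 spread by less than 1 CPM among the 4 fovea libraries. HS3ST4, a heparan sulfate sulfotransferase, was 2.59-fold higher at the perimacula, NYX, nyctalopin, 2.77-fold, the axonemal dynein DNAH5 4.68-fold and the muscle actinin ACTN3 1.78-fold. DNAH5 stayed under 2 CPM and NYX under 2 CPM in each of the 8 libraries.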
